A study of Mus musculus with 9 samples.

Results

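The transcripts of 10 direct target genes of the transcription factor p53 were followed in mouse embryonic stem cells (ESCs) depleted of Dppa2 or Dppa4. The genes were taken by name (Cdkn1a, Mdm2, Ccng1, Trp53inp1, Bbc3, Fas, Zmat3, Perp, Sesn2, and Phlda3) from a table of 25965 genes, all 10 were found in it, and all 10 passed the filter on low values, as did 14601 genes in all. RNA came from E14 ESCs, a feeder-free line of 129/Ola background kept in serum with LIF, that were transfected with a control siRNA, an siRNA against Dppa2, or an siRNA against Dppa4 at 0 h and again at 48 h and were collected at 96 h. Per the study, the knockdowns were made in ESCs that carry the fluorescent reporters MERVL::tdTomato and Zscan4c::eGFP. Each siRNA has 3 libraries of polyadenylated RNA, called A, B, and C, and the labels do not say whether they came from separate cultures, so every p-value measures only the spread between these libraries. All 9 libraries went through the same pair of transfections, and no untransfected cells were measured here, so any response common to all transfected cells cannot be seen.

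p53 is a transcription factor that is held at low activity by the ubiquitin ligase Mdm2 and is released by DNA damage and other stress, whereupon it binds paired copies of a 10-base motif near its target genes. The targets carry out cell cycle arrest (Cdkn1a, the inhibitor p21 of cyclin-dependent kinases), apoptosis (Bbc3, the BH3-only protein Puma; Fas, a death receptor; Perp, a membrane protein of desmosomes; Phlda3, a repressor of Akt signaling), metabolic restraint (Sesn2, a sestrin that limits mTORC1), RNA control (Zmat3, an RNA-binding zinc finger protein), and feedback on p53 itself (Mdm2; Ccng1, cyclin G1; Trp53inp1, a nuclear protein that promotes p53 activity). ESCs express p53 at high levels. p53 has been linked to activation of Dux, the transcription factor of the 2C-like state that Dppa2 and Dppa4 promote, and transfection is itself a stress, so the question put to the data was whether these targets moved when either protein was depleted.

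Promoter sequence is shown for the 3 of the 10 genes in which the p53 motif was found. RefSeq promoter windows (GRCm38.p6, 250 bases before to 50 bases after the start of transcription) were at hand for 7 of the 10 genes, in 10 windows, and were searched on both strands for the p53 response element, which is formed by 2 copies of the 10-base motif with 0 to 13 bases between them, allowing at most 1 mismatch in 20 positions. In Cdkn1a, 2 overlapping matches in the window of the upstream start spanned 42 bases that began 73 bases before that start. A second window of Cdkn1a, at a start further downstream (chr17:29093519-29093818), held neither a full element nor an exact copy of the motif. In Ccng1, 1 match with 1 mismatch began 195 bases before the start. Mdm2 held no full element, but it held 1 exact copy of the 10-base motif that began 186 bases before the start. The stretches below are those that hold a match, written 5′ to 3′ on the strand of the gene, at chr17:29090866-29090977 (plus strand), chr11:40755432-40755521 (minus strand), and chr10:117710905-117710984 (minus strand). Capitals mark each match from its first to its last base. In Cdkn1a they include the 12 bases between the 2 copies of 1 match, which are not part of the motif.
Cdkn1a: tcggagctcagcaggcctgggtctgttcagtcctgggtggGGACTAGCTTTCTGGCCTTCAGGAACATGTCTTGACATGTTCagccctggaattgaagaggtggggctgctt
Ccng1: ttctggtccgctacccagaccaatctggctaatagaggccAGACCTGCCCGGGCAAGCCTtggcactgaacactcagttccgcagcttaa
Mdm2: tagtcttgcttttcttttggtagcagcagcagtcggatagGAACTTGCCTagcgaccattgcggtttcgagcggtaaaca
Of 32851 RefSeq windows of this length, 1.09% held a full element and 8.36% an exact copy of the 10-base motif. The windows of Phlda3, Sesn2, Bbc3, and Fas held neither, which says only that these letters are not in these windows.

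The siRNAs lowered their targets. Dppa2 was at log2 values of 7.26, 7.16, and 6.94 in control siRNA ESCs and 3.36, 3.86, and 3.68 in Dppa2 siRNA ESCs, a change of -3.49 ± 0.14 (SE; adjusted p = 2.13e-05, limma). Dppa4 was at 7.02, 7.11, and 7.06 in control siRNA ESCs and 6.16, 6.14, and 6.09 in Dppa4 siRNA ESCs, a change of -0.93 ± 0.08 (SE; adjusted p = 0.000281, limma), a fold of 0.524. These are transcript levels, and Dppa2 changed by -0.05 ± 0.14 (SE) with Dppa4 siRNA. In its Western blots the study reported that Dppa4 siRNA also strongly lowered Dppa2 protein. Dppa2 siRNA lowered Dppa4 protein there to a lesser degree. The groups are therefore not depletions of a single protein. These log2 values are the deposited normalized levels, which are not corrected for transcript length, and log2 changes are differences of their group means. The libraries held an estimated 16.8 to 40.2 Mreads on genes. The 10 ESC markers examined were at log2 values of 5.36 to 10.41 in every library and 0 passed the test. For this and the other marker lists, 3.44% of all tested genes were called in either comparison with the controls. In Dppa4 siRNA ESCs, 2 of 9 primitive endoderm markers passed the test and rose, Gata6 by 1.44 (adjusted p = 0.0132, limma) and Sox17 by 1.20 (adjusted p = 0.0348, limma) on the log2 scale. There 1 of the 9 was lower (44.6% of all tested genes), the median change was 1.08, and 5 had an unadjusted p below 0.05 (18.0% of all tested genes). With Dppa2 siRNA 0 passed, 2 were lower (45.9% of all tested genes), the median was 0.42, and 3 had an unadjusted p below 0.05 (15.7%). The summed linear level of the 9 markers, which gives most weight to the most abundant, was 75.0 to 100 in the control libraries, 83.7 to 88.0 in the Dppa2 libraries, and 88.5 to 95.4 in the Dppa4 libraries. Of 8 fibroblast markers, 3 were high enough to test and 1 of these, Pdgfrb, rose with both siRNAs, and Postn and Lum were at 0 reads in every library. Of 8 markers of early differentiation, Gata2 alone passed the test and fell with both siRNAs. With Dppa2 siRNA 6 of the 8 were lower (median change -0.40) and 5 had an unadjusted p below 0.05 (limma). With Dppa4 siRNA 5 were lower (median -0.23) and 3 had an unadjusted p below 0.05. The shares of all tested genes are those given for the endoderm markers. The part of these markers in the values below was not tested.

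In control siRNA ESCs, 9 of the 10 p53 targets were well expressed and Fas was barely detected. Per kilobase of the longest annotated transcript, the mean control log2 level was highest for Ccng1 (5.47 ± 0.38, SD, n = 3), followed by Phlda3 (5.24 ± 0.39), Sesn2 (5.18 ± 0.33), and Mdm2 (5.15 ± 0.07), and these 4 neighbors differed by less than their SDs. Bbc3 came next at 4.61 ± 0.31 per kilobase. Trp53inp1 (3.99 ± 0.56), Cdkn1a (3.81 ± 0.18), and Zmat3 (3.71 ± 0.25) formed a lower group whose neighbors also differed by less than their SDs, and Perp (3.33 ± 0.13) lay below them by more than either SD. Fas stood far below at -3.02 ± 0.33 per kilobase. The 9 genes other than Fas had an estimated 455 to 9762 reads in each library, and Fas had 0 to 17. Of the 10 transcripts, 8 shared no 50-base stretch with any other annotated gene, and 2 of 620 stretches of Mdm2 and 16 of 1550 of Zmat3 were shared. For Cdkn1a, a gene is annotated on the opposite strand at the same place, and the deposited counting used strand. Sesn2 and Fas each overlap a noncoding gene on their own strand (Gm12981 and Gm27818), so their reads may be shared with it.

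**Figure D1:**
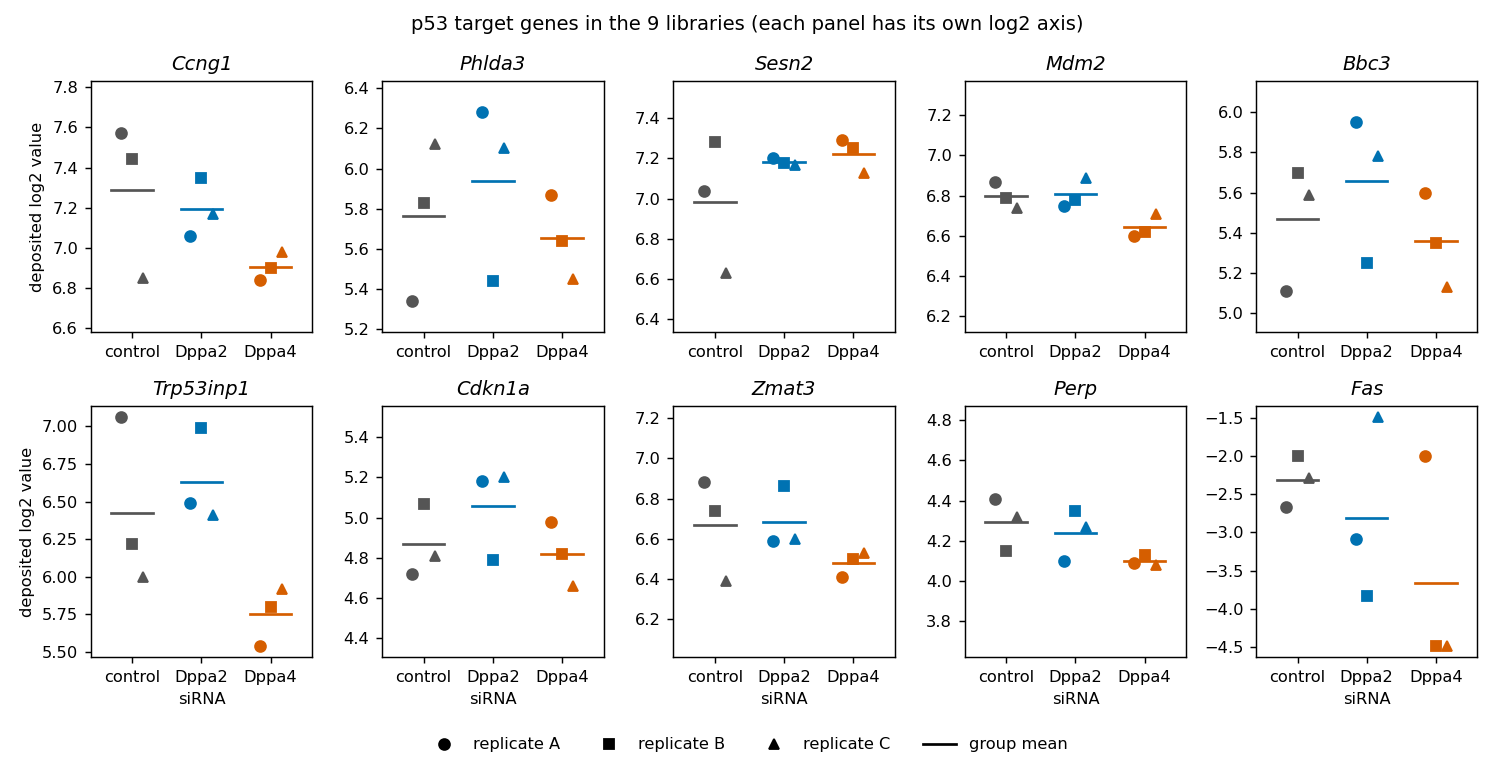
Deposited log2 value (vertical axis, 1 scale per panel) of each of the 10 p53 target genes in the 9 libraries, grouped by siRNA on the horizontal axis; symbols give the replicate letter and bars the group mean. The 3 Dppa4 siRNA libraries of Trp53inp1, Mdm2, and Perp lie below all 3 control libraries, and the Dppa2 and control libraries overlap in every panel.

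None of the 10 p53 targets passed the test in Dppa2 or Dppa4 siRNA ESCs (0 of 10 in each), where 3.44% of all tested genes were called in either comparison. At an unadjusted p below 0.05 the counts were 0 of 10 with Dppa2 siRNA, against 15.7% of all tested genes, and 1 of 10 (Trp53inp1) with Dppa4 siRNA, against 18.0%. With Dppa2 siRNA, 3 of the 10 changes were below 0 (45.9% of all tested genes) and the median change was 0.09, beside 0.02 over all tested genes. With Dppa4 siRNA, 9 of the 10 were below 0 (44.6% of all tested genes) and the median was -0.18, beside 0.03. The number of genes whose 3 Dppa4 libraries all lay below the 3 control libraries was 3 of 10 (Mdm2, Perp, and Trp53inp1), where 10.2% of all tested genes did so. Counted in either direction it was also 3 of 10, where 23.9% of all tested genes had Dppa4 libraries all on one side of the controls. No p53 target had Dppa2 libraries that all lay on one side of the controls, where 17.8% of all tested genes did. The 2 knockdowns share the control libraries, so their values are not independent of each other.

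Among the genes that feed back on p53, Trp53inp1 had the largest differences of the 9 well-expressed targets in both comparisons that involve Dppa4 siRNA. Its log2 values were 7.06, 6.22, and 6.0 in control libraries A, B, and C, 6.49, 6.99, and 6.41 in the Dppa2 libraries, and 5.54, 5.80, and 5.92 in the Dppa4 libraries. The Dppa4 libraries were all lower than every other library, and control A and Dppa2 B were the highest. With Dppa4 siRNA the change was -0.67 ± 0.27 (SE), with a 95% interval of -1.28 to -0.07, an unadjusted p of 0.0327 and an adjusted p of 0.225 (limma). With Dppa2 siRNA it was 0.20 ± 0.27 (adjusted p = 0.864, limma). The Dppa4 change lay between -0.89 and -0.36 when single libraries were left out, the smallest without control A.

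Ccng1, like Trp53inp1, had its lowest mean with Dppa4 siRNA, with a smaller difference. Its log2 values were 7.57, 7.44, and 6.85 in the control libraries, 7.06, 7.35, and 7.17 in the Dppa2 libraries, and 6.84, 6.90, and 6.98 in the Dppa4 libraries, so control C sat among the Dppa4 libraries and the other controls above them. The change with Dppa4 siRNA was -0.37 ± 0.18 (SE; adjusted p = 0.309, limma), and without control C it was -0.59 and passed the test (adjusted p = 0.0255, limma). With Dppa2 siRNA it was -0.09 ± 0.18. Mdm2, the ligase that degrades p53, was the steadiest of the 10 genes, with an SD of 0.10 over the 9 libraries beside a median of 0.20 over 8577 tested genes with a mean log2 value above 3. Its values were 6.87, 6.79, and 6.74 in the controls, 6.75, 6.78, and 6.89 with Dppa2 siRNA, and 6.60, 6.62, and 6.71 with Dppa4 siRNA. The Dppa4 libraries were the 3 lowest, by -0.16 ± 0.08 from the control mean (SE; adjusted p = 0.373, limma), and the Dppa2 mean equaled the control mean (change 0.00, 95% interval -0.19 to 0.19).

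Cdkn1a, which like Ccng1 holds a full element in a promoter window shown above, did not change detectably. It was at log2 values of 4.72, 5.07, and 4.81 in control libraries, 5.18, 4.79, and 5.20 with Dppa2 siRNA, and 4.98, 4.82, and 4.66 with Dppa4 siRNA, and the 3 groups overlapped. Its change in Dppa2 siRNA ESCs was 0.19 (95% interval -0.15 to 0.53) and its change in Dppa4 siRNA ESCs was -0.05 (95% interval -0.39 to 0.29), so a change of 1 on the log2 scale lies outside both intervals.

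Of the apoptotic targets, Bbc3 and Phlda3 varied more between the libraries of one siRNA than between siRNAs. Bbc3 was at log2 values of 5.11, 5.70, and 5.59 in the controls, 5.95, 5.25, and 5.78 with Dppa2 siRNA, and 5.60, 5.35, and 5.13 with Dppa4 siRNA. Phlda3 was at 5.34, 5.83, and 6.12 in the controls, 6.28, 5.44, and 6.10 with Dppa2 siRNA, and 5.87, 5.64, and 5.45 with Dppa4 siRNA. In both genes control A was the lowest library and Dppa2 A the highest, and the changes of 0.19 and 0.17 with Dppa2 siRNA and of -0.11 in both genes with Dppa4 siRNA were smaller than their SEs of 0.22 and 0.25. Perp was at 4.41, 4.15, and 4.32 in the controls, 4.10, 4.35, and 4.27 with Dppa2 siRNA, and 4.09, 4.13, and 4.08 with Dppa4 siRNA. Its Dppa4 libraries lay just below the lowest control (change -0.19 ± 0.11, SE; adjusted p = 0.419, limma). Fas had an estimated 6, 17, and 6 reads in the controls, 3, 1, and 6 with Dppa2 siRNA, and 8, 0, and 0 with Dppa4 siRNA. A count of 0 allows up to 3 reads from counting error alone, and the interval of its Dppa4 change, -3.19 to 0.51 on the log2 scale, shows that a difference was not detectable at this depth.

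Sesn2 and Zmat3 complete the set. Sesn2 was at log2 values of 7.04, 7.28, and 6.63 in the controls, 7.20, 7.18, and 7.17 with Dppa2 siRNA, and 7.29, 7.25, and 7.13 with Dppa4 siRNA. Both knockdown means were higher than the control mean, by 0.21 ± 0.15 and 0.24 ± 0.15 (SE; adjusted p = 0.625 and 0.465, limma), and control C, the lowest library, decided the size of both, which were 0.03 and 0.07 without it. Zmat3 was at 6.88, 6.74, and 6.39 in the controls, 6.59, 6.86, and 6.60 with Dppa2 siRNA, and 6.41, 6.50, and 6.53 with Dppa4 siRNA. The changes of Zmat3 were 0.01 ± 0.14 and -0.19 ± 0.14 (SE; adjusted p = 0.99 and 0.544, limma).

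**Figure D2:**
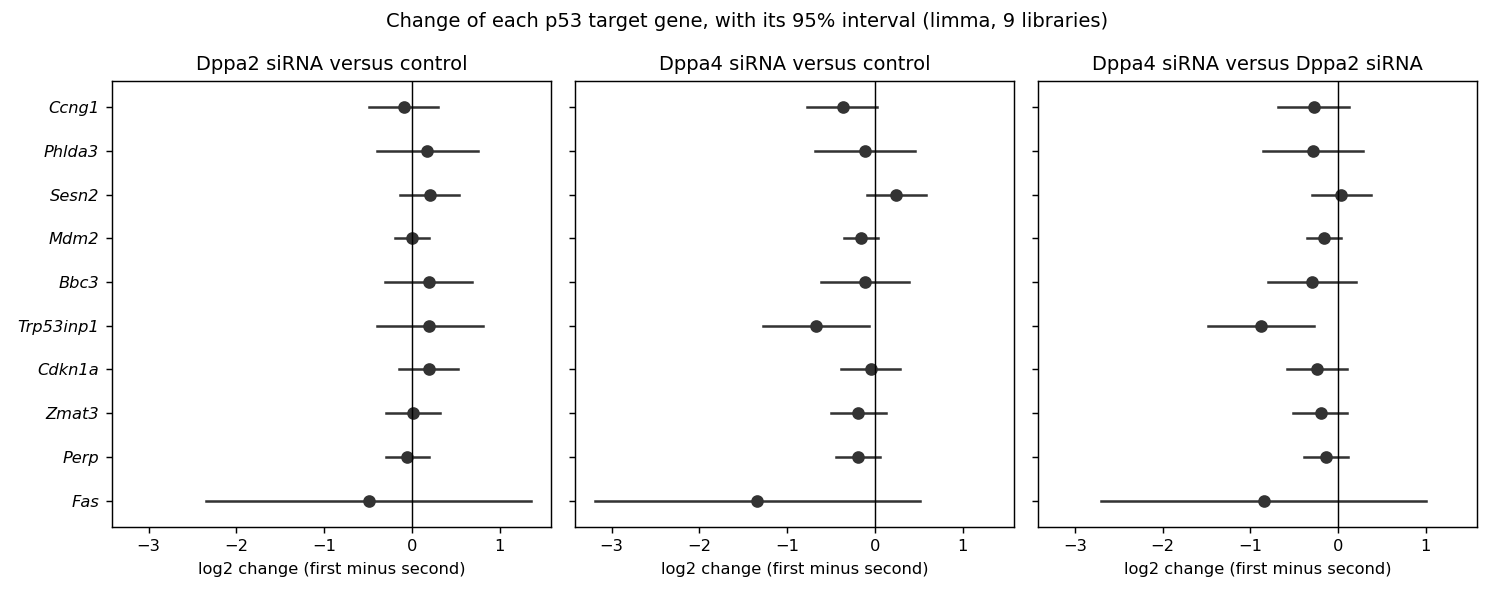
Log2 change (horizontal axis, first group minus second) of the 10 p53 target genes in 3 comparisons, with the 95% interval of the limma fit on 9 libraries. All 10 intervals for Dppa2 siRNA versus control include 0, and the interval of Trp53inp1 lies below 0 in both comparisons that involve Dppa4 siRNA.

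Compared directly, the Dppa4 libraries were lower than the Dppa2 libraries for 9 of the 10 genes, where 49.7% of all tested genes were lower. The median change of the 10 was -0.26, beside 0.00 over all tested genes, and Sesn2 was the exception at 0.03. No p53 target was called (0 of 10), where 0.0205% of all tested genes were, and 1 of 10 (Trp53inp1) had an unadjusted p below 0.05, against 6.76%. For Trp53inp1 the change was -0.88 ± 0.27 (SE), with a 95% interval of -1.48 to -0.27, an unadjusted p of 0.00952 and an adjusted p of 0.666 (limma). In 4 of the 10 genes (Ccng1, Mdm2, Trp53inp1, and Zmat3) the 3 Dppa4 libraries all lay below the 3 Dppa2 libraries, as did 7.54% of all tested genes. Counted in either direction it was also 4 of 10, beside 17.6% of all tested genes. A lower level in the Dppa4 libraries was not particular to the p53 targets. In the stress lists examined below, 12 of 13 Atf4 genes were lower (median -0.27), as were 6 of 7 tested interferon-response genes (median -0.09). Of the 9 primitive endoderm markers 1 was lower (median 0.45).

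The libraries differed in how levels depended on the base composition of the transcripts. In every library the deviation of 7756 genes with a mean log2 value above 3 and an annotated transcript was fitted on GC content and length. The slope on GC content was -0.17 log2 units per 10 percentage points in control A and -0.14 in Dppa2 B, it was 0.16 in Dppa4 A and 0.09 in Dppa2 A, and it was between -0.03 and 0.07 in the other 5. The fit took 46.8% of the variance of control A and 1.07% of that of control B. The p53 targets differ widely in composition, from 38.8% GC in Trp53inp1 to 65.2% in Bbc3. Phlda3, Bbc3, and Cdkn1a, at 62.6%, 65.2%, and 54.4% GC, deviated from their own means by an average of -0.34, 0.14, and 0.11 in control A, B, and C, 0.41, -0.24, and 0.30 in the Dppa2 libraries, and 0.08, -0.13, and -0.32 in the Dppa4 libraries. Ccng1, Trp53inp1, and Zmat3, at 40.8%, 38.8%, and 47.6% GC, deviated by 0.50, 0.13, and -0.25 in the controls, 0.04, 0.39, and 0.06 in the Dppa2 libraries, and -0.41, -0.27, and -0.19 in the Dppa4 libraries. The sets lay on opposite sides in control A, control C, Dppa2 B, and Dppa4 A. The slope on length, in log2 units per doubling, was 0.22, 0.02, and -0.16 in control A, B, and C. It was -0.11, 0.14, and -0.08 in the Dppa2 libraries and -0.07, -0.02, and 0.065 in the Dppa4 libraries. The transcripts of the first set are 1435, 1814, and 2080 bases long, and those of the second are 3512, 5432, and 7797 bases long. The part of GC content and of length in these deviations was not tested. Sesn2, at 58.7% GC and 3475 bases, did not follow the first set (-0.09 in control A and 0.06 in Dppa2 B). These sets of 3 genes were chosen after their values were seen and are a description.

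**Figure D3:**
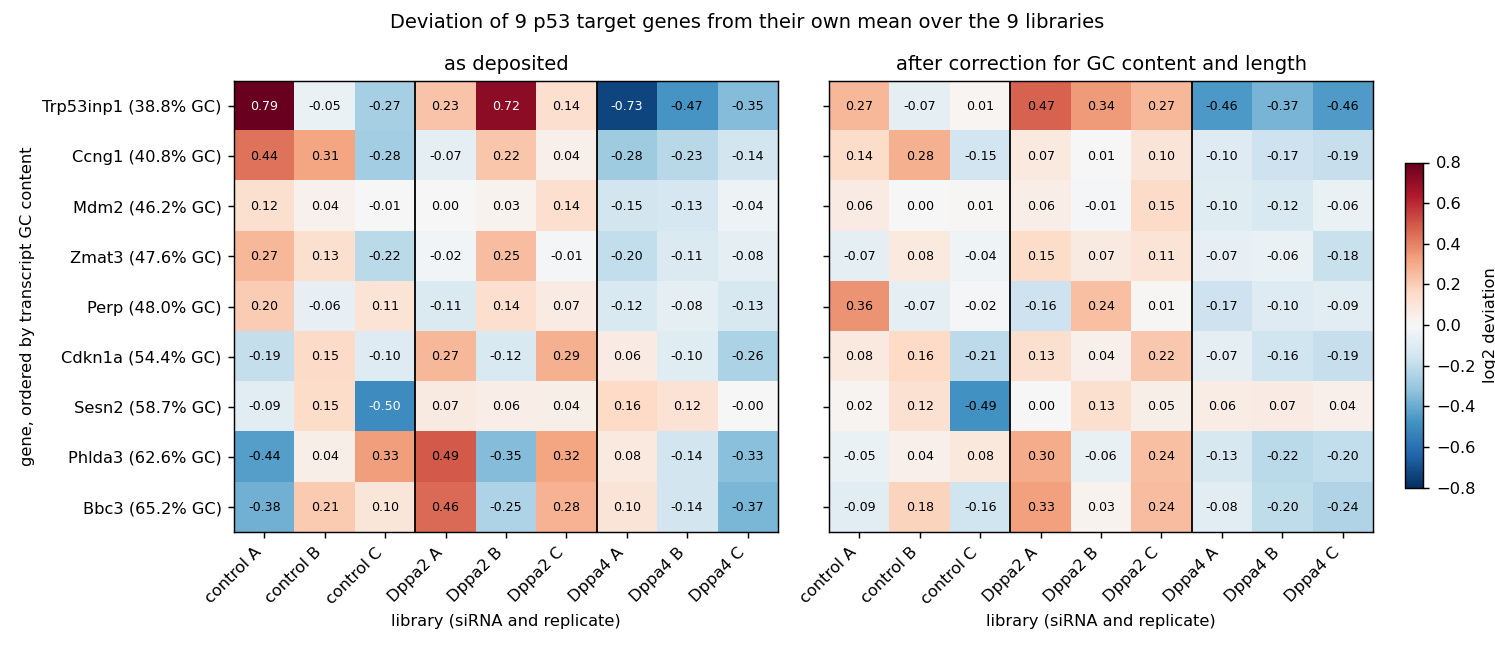
Log2 deviation (color, and number in each cell) of 9 p53 target genes from their own mean over the 9 libraries (columns), with genes in rows ordered by transcript GC content, as deposited (left) and after the GC content and length trend of each library was removed (right); Fas is left out for its low reads. At left, control A and Dppa2 B are positive for the 5 genes of lowest GC content and negative for Cdkn1a, Phlda3, and Bbc3, and at right the Dppa4 columns are negative in every gene but Sesn2.

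With a smooth trend on GC content and length taken out of each library, an alternative added after the data had been seen, the SD over the 9 libraries went from 0.52 to 0.36 for Trp53inp1, from 0.34 to 0.18 for Phlda3, from 0.27 to 0.16 for Ccng1, and from 0.30 to 0.21 for Bbc3, was little changed for Sesn2 (0.20 to 0.19), Mdm2 (0.10 to 0.08), and Fas (1.12 to 1.09), and went from 0.13 to 0.18 for Perp. Trp53inp1 was then called in Dppa4 siRNA ESCs, with a change of -0.50 ± 0.10 (SE; adjusted p = 0.0206, limma), the only one of the 10, where 6.36% of all genes tested in this way were called. With Dppa2 siRNA its corrected change was 0.29 ± 0.10 (adjusted p = 0.128, limma) and 0 of 10 were called, where 6.12% of all genes were. In the corrected direct comparison 0 of 10 genes were called, where 0.0306% of all genes were, and the adjusted p of Trp53inp1 was 0.051 (limma; change -0.79 ± 0.10). All 10 corrected changes were at or below 0 (51.1% of all genes were below 0), and 6 of 10 had an unadjusted p below 0.05 (10.2% of all genes). In 7 of 10 the Dppa4 libraries all lay below the Dppa2 libraries (11.7% of all genes, or 21.9% counted in either direction). The 7 were Trp53inp1, Ccng1, Mdm2, Zmat3, Cdkn1a, Phlda3, and Bbc3, and among them the corrected changes were -0.37 ± 0.11 for Bbc3, -0.34 ± 0.10 for Phlda3, and -0.27 ± 0.10 for Cdkn1a (SE).

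**Figure D4:**
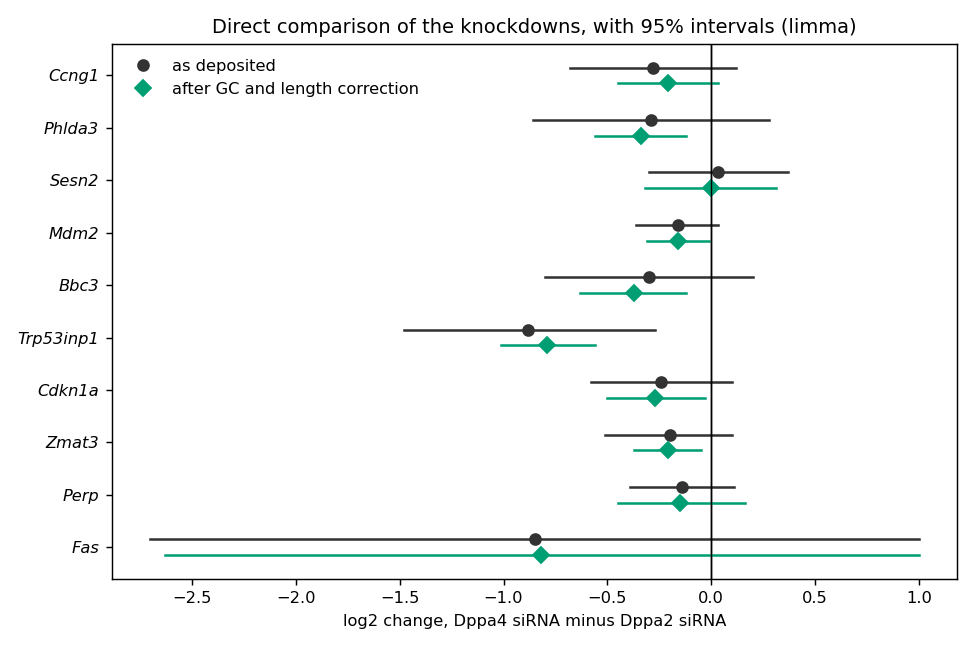
Log2 change of the 10 p53 target genes in Dppa4 siRNA minus Dppa2 siRNA ESCs (horizontal axis) with 95% intervals, as deposited (black circles) and after correction for GC content and length (green diamonds). The corrected intervals of Trp53inp1, Bbc3, Phlda3, Cdkn1a, Zmat3, and Mdm2 lie below 0, and none of the 10 genes passed the adjusted test in this comparison.

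The genes whose levels most resembled those of Cdkn1a over the 9 libraries included other p53 targets. The 5 highest Pearson correlations were with Btg2 (r = 0.974), an antiproliferative gene, Dact3 (0.972), an antagonist of Wnt signaling, Dgka (0.969), a diacylglycerol kinase, Baiap2l2 (0.957), and Mms19 (0.949), a factor of cytosolic iron-sulfur assembly. Btg2 and Dgka are among the 38 other p53 targets examined. Btg2 was at log2 values of 4.81, 5.14, and 4.86 in the controls, 5.13, 4.84, and 5.16 with Dppa2 siRNA, and 4.93, 4.86, and 4.72 with Dppa4 siRNA. As in Cdkn1a, Dppa2 C, Dppa2 A, and control B were its 3 highest libraries, and these were also the 3 highest of Dgka, at 5.14, 5.22, and 5.05.

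Of the 38 other targets, 5 (Btg2, Cpt1c, Dgka, Gdf15, and Pltp), or 13.2%, had r above 0.8 with Cdkn1a, beside 1.49% of the 14600 other tested genes, and the median r was 0.20 beside 0.04. Of the 9 other genes of the main set, Bbc3 alone did (highest r = 0.93, median 0.21). After the GC content and length correction, r above 0.8 was found for 3 of 37 (Btg2, Dgka, and Pltp), or 8.11%, beside 0.536% of all genes, and for Bbc3 and Ccng1, and the median over the 9 genes was 0.68 beside -0.02. These correlations run over 9 libraries that share depth and base composition effects, and they include differences between siRNAs and between libraries of one siRNA. With the mean of the 10 centered genes, which gives the most weight to the noisy Fas, the highest correlations were those of Mta1 (0.953), Siah1b (0.925), Gpt2 (0.918), Pirt (0.91), and Klf11 (0.901).

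**Figure D5:**
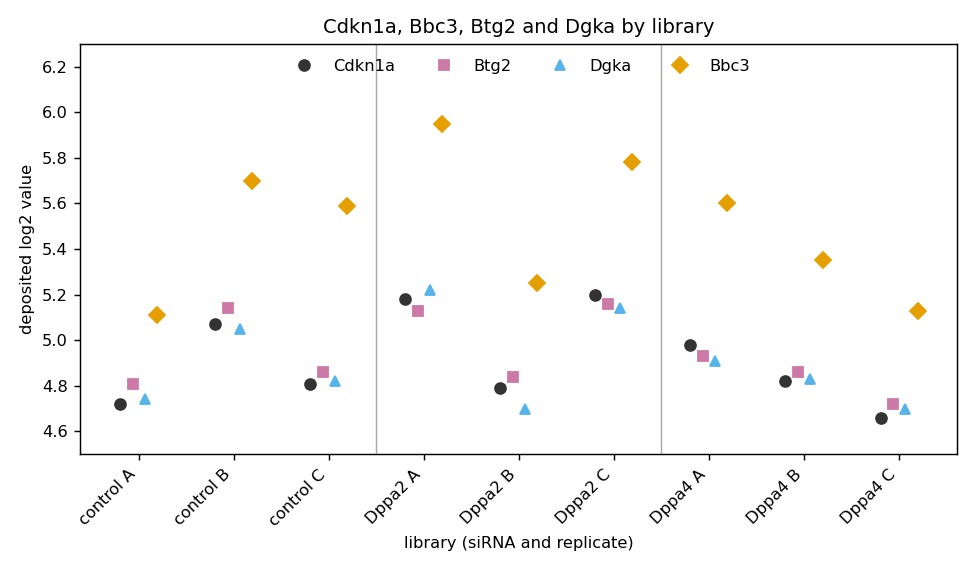
Deposited log2 value (vertical axis) of Cdkn1a, Bbc3, Btg2, and Dgka in each of the 9 libraries (horizontal axis, grouped by siRNA). Cdkn1a, Btg2, and Dgka are highest in Dppa2 A, Dppa2 C, and control B and lowest in Dppa4 C, control A, and Dppa2 B.

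p53 itself and most of its regulators did not pass the test. Trp53 was at log2 values of 8.46, 8.59, and 7.92 in the controls, 7.85, 8.40, and 8.0 with Dppa2 siRNA, and 8.49, 8.52, and 8.43 with Dppa4 siRNA. The Dppa4 libraries lay above all Dppa2 libraries (change 0.40 ± 0.19, SE; adjusted p = 0.769, limma), while against the controls the changes were -0.24 ± 0.19 with Dppa2 siRNA and 0.16 ± 0.19 with Dppa4 siRNA. Of 18 tested regulators, counting Trp53, 1 fell with each siRNA, where 3.44% of all tested genes were called in either comparison (Trp63 was too low to test). Hipk2, a kinase that phosphorylates p53, was at 3.27, 3.16, and 2.83 in the controls and 2.21, 2.54, and 2.36 with Dppa2 siRNA, a change of -0.72 ± 0.15 (SE; adjusted p = 0.0351, limma), and its change with Dppa4 siRNA was -0.51 ± 0.15 (adjusted p = 0.105). Its Dppa2 call was lost when any of 7 of the 9 libraries was left out (adjusted p up to 0.143) and was kept without control C or Dppa2 B, and without control C the Dppa4 change passed as well (-0.64, adjusted p = 0.0427), as it did with the GC content and length correction (-0.50, adjusted p = 0.0149). Atr, the kinase of the replication stress checkpoint, was at 5.33, 5.20, and 5.35 in the controls and 4.74, 4.84, and 4.91 with Dppa4 siRNA, a change of -0.46 ± 0.09 (SE; adjusted p = 0.0336, limma). Its call was lost when any of 8 of the 9 libraries was left out (adjusted p up to 0.161), was kept only without Dppa2 B, and was lost with the GC content and length correction (change -0.25, adjusted p = 0.603). Mdm4, the partner of Mdm2, and Atm, the kinase of the response to DNA breaks, spanned 5.47 to 3.12 and 5.09 to 3.12 within the control libraries alone, and their changes of -0.49 ± 0.60 and -0.50 ± 0.48 with Dppa2 siRNA and of -0.55 ± 0.60 and -0.33 ± 0.48 with Dppa4 siRNA were within that spread.

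Among the 38 other p53 targets, 1 fell in Dppa4 siRNA ESCs and 0 passed the test in Dppa2 siRNA ESCs, where 3.44% of all tested genes were called in either comparison. At an unadjusted p below 0.05 there were 4 of 38 with Dppa2 siRNA, against 15.7% of all tested genes, and 3 of 38 with Dppa4 siRNA, against 18.0%. The gene that fell was Pmaip1, which encodes the BH3-only protein Noxa. Its log2 values were 4.46, 4.12, and 4.26 in the controls, 3.68, 3.84, and 3.89 with Dppa2 siRNA, and 3.43, 3.42, and 3.71 with Dppa4 siRNA, so both knockdowns lay below every control. The change was -0.76 ± 0.13 with Dppa4 siRNA (SE; adjusted p = 0.0166, limma) and -0.48 ± 0.13 with Dppa2 siRNA (adjusted p = 0.103, limma). The Dppa4 call was lost without Dppa4 A (adjusted p = 0.0868) or Dppa4 B (0.098), with the replicate block (0.065), and with only the 2 groups compared (0.0543). The next largest changes among these targets did not pass the test, at -0.49 ± 0.30 for Rprm and 0.43 ± 0.31 for Gdf15 with Dppa2 siRNA, and at -0.56 ± 0.41 for Thbs1 and -0.42 ± 0.30 for Rprm with Dppa4 siRNA. Of the 38, 13 were lower with Dppa2 siRNA (median change 0.06), where 45.9% of all tested genes were lower. With Dppa4 siRNA 23 were lower (median -0.06), where 44.6% were. Between the knockdowns 30 were lower with Dppa4 siRNA than with Dppa2 siRNA (median -0.11), where 49.7% were. After the GC content and length correction 28 of 37 were lower in that comparison (median -0.14), where 51.1% of all genes were. There 9 of 37 had an unadjusted p below 0.05 (limma), against 10.2%, and 0 were called.

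Stress programs other than p53 were compared as a background to transfection. Of 13 genes of the integrated stress response, its transcription factor Atf4 and targets of Atf4, 1 rose with Dppa2 siRNA and 0 passed the test with Dppa4 siRNA. In either comparison 3.44% of all tested genes were called. At an unadjusted p below 0.05 there were 4 of 13 with Dppa2 siRNA, against 15.7% of all tested genes, and 1 of 13 with Dppa4 siRNA, against 18.0%. With Dppa2 siRNA 1 of the 13 was lower than in the controls (median change 0.33), where 45.9% of all tested genes were lower, and with Dppa4 siRNA 4 of 13 were lower (median 0.13), where 44.6% were. The gene that rose was Ddit4, an inhibitor of mTORC1 that p53 also induces, at log2 values of 5.87, 6.23, and 5.75 in the controls, 6.77, 6.72, and 6.97 with Dppa2 siRNA, and 6.15, 5.99, and 6.0 with Dppa4 siRNA. Its change was 0.87 ± 0.14 with Dppa2 siRNA (SE; adjusted p = 0.00898, limma) and 0.10 ± 0.14 with Dppa4 siRNA, and the direct difference of -0.77 ± 0.14 did not pass the test (adjusted p = 0.432, limma). The Ddit4 call was lost without Dppa2 C (adjusted p = 0.052, limma), with the replicate block (0.0516), with only the 2 groups compared (0.054), and with the GC content and length correction and the block together (0.0765). Of 13 interferon-response genes, which double-stranded RNA can induce, 7 were high enough to test and 0 passed with either siRNA, and 0 with Dppa2 siRNA and 1 with Dppa4 siRNA had an unadjusted p below 0.05. Of these 7, 1 was lower with Dppa2 siRNA (median change 0.34) and 2 were lower with Dppa4 siRNA (median 0.13). The 8 tested genes of the 2C-like state, the Zscan4 and Tcstv genes among them, all fell with both siRNAs, and their summed linear level was 71.4 to 75.6 in the control libraries, 0.562 to 1.23 in the Dppa2 libraries, and 0.614 to 0.976 in the Dppa4 libraries. In these same libraries the median p53 target changed by 0.09 and -0.18 on the log2 scale. The study describes 2C-like cells as a rare subset of ESCs, and these levels are averages over the whole culture. A change of p53 targets confined to 2C-like cells may not show in such averages and was not tested.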

How the data were processed

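Per the labels and the study's methods, reads were trimmed with Trim Galore, aligned to GRCm38 with HISAT2 2.0.5 and quantitated with strand on mRNA probes in SeqMonk, and the cumulative distributions of the libraries were matched. The authors deposited the result as log2 values for 25965 genes, not corrected for transcript length. Matching removes differences in total RNA. The count model of the study needs raw counts, so limma 3.58.1 (R 4.3.3) took its place: 1 fit of the 9 libraries on siRNA alone, with trended variance, on the 14601 genes whose log2 value exceeded -2 in 3 or more libraries. p-values were adjusted by Benjamini-Hochberg over these genes (threshold 0.05), and the fit was tested on simulated data. The genes to be named were the 10 targets, Dppa2, Dppa4, Trp53, Mdm4, listed genes past the test, the 3 largest changes of each p53 list, and the 5 genes most like Cdkn1a or the members' mean. Read numbers (16.8 to 40.2 Mreads per library) were estimated by ranking the distinct values within a library and are approximate. Transcript length and GC content came from GENCODE for 86.9% of genes. Members and lists were chosen with earlier results of these data known. Alternatives changed the filter, trend, scaling, pseudocount, libraries, and block, added the intensity difference filter, and, added after seeing the data, corrected for GC content and length. The Dux transcript is not reported here. Python 3.11.15, numpy 2.4.6, pandas 2.3.3, and matplotlib 3.10.9 were used.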

Additional observations from a re-analysis of the deposited data

How the results depend on the processing

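Under 19 alternatives, 545 of 567 changes of the p53 targets kept their direction and their side of the threshold, 3 passed the threshold that had not, and 19 changed sign, all between values that did not pass the test. Genes called with Dppa2 and Dppa4 siRNA (502 each) numbered 295 and 293 with the intensity difference filter also passed, 230 and 294 with only the 2 groups compared, 799 and 830 with the GC content and length correction, and 232 to 494 and 184 to 506 when single libraries were left out (lowest without Dppa2 C and Dppa4 B). With no filter on low values, 9140 were called with Dppa2 siRNA, 7728 of them below the filter, and 4 other p53 targets, all above the filter, were among the calls. Between the knockdowns 3 genes were called, 5 with no filter, and 1 to 3 with single libraries left out.

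The replicate letters did not pair the libraries: same-letter deviations correlated at -0.83 to 0.71, and control A was most like Dppa2 B (0.92). With the replicate block 238 and 212 genes were called and 1 between the knockdowns, also 1 when the block was combined with the GC content and length correction, and 0 other p53 targets and 0 regulators were called.

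Of the p53 targets, 1 was called with Dppa4 siRNA under the GC content and length correction, with or without the block (Trp53inp1), and 0 to 1 with single libraries left out (Ccng1, without control C). Their median change with Dppa2 siRNA was 0.17 with genes above a log2 value of 0, which leaves out Fas, and -0.02 (without control C) to 0.09 with single libraries left out. The 1 regulator called with each siRNA became 0 with only the 2 groups compared, 0 to 1 with single libraries left out, 0 for Dppa2 siRNA with the intensity filter, and 0 for Dppa4 siRNA with the correction and block. With the correction alone, Dppa4 siRNA had 1 call that was Hipk2 in place of Atr. Other targets called with Dppa4 siRNA numbered 0 with only the 2 groups compared and 0 to 2 with single libraries left out (0 without Dppa4 A or B, 2 without control C), and 1 was called with Dppa2 siRNA under the correction (Pmaip1). The causes were not tested.

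Signs changed as follows with single libraries left out. With Dppa2 siRNA the ranges were -0.04 to 0.04 for Mdm2, -0.31 to 0.05 for Ccng1, -0.01 to 0.52 for Trp53inp1, -1.15 to 0.02 for Fas, -0.13 to 0.12 for Zmat3, -0.13 to 0.02 for Perp, -0.04 to 0.43 for Phlda3, -1.04 to 0.13 for Mdm4, -0.95 to 0.04 for Atm, and -0.44 to 0.27 for Thbs1. With Dppa4 siRNA they were -0.13 to 0.05 for Cdkn1a, -0.29 to 0.01 for Bbc3, -0.32 to 0.07 for Phlda3, -0.14 to 0.02 for Dppa2, -0.04 to 0.29 for Trp53, -1.10 to 0.08 for Mdm4, -0.78 to 0.21 for Atm, -0.29 to 0.25 for Gdf15, and -0.00 to 0.24 for Ddit4. Between the knockdowns they were -0.00 to 0.08 for Sesn2, -0.37 to 0.44 for Mdm4, -0.03 to 0.52 for Atm, and -0.18 to 0.22 for Rprm. Under the GC content and length correction, with and without the block, the change between the knockdowns was -0.00 for Sesn2, the change of Atr with Dppa2 siRNA was 0.02, and the changes with Dppa4 siRNA were 0.03 for Dppa2 and -0.01 for Ddit4. Depth limits Fas, at 0 to 17 reads.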
